A study of Mus musculus with 8 samples.

Results

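Fatty acid synthesis in the liver was followed through 10 genes, chosen by name as the enzymes and regulators of the pathway: Srebf1, Mlxipl, Acly, Acaca, Acacb, Fasn, Scd1, Elovl6, Me1 and Thrsp. All 10 were in the count table of 33212 genes, and all 10 were among the 15291 genes with enough counts to be tested. Liver RNA came from 4 male Nnmt KO mice and 4 male control mice, with 1 library per mouse. The Nnmt KO mice carried Alb-Cre, a Cre recombinase driven by the albumin promoter and hence active in hepatocytes, on an Nnmt flox/flox background. The control mice are labelled WT on C57BL/6, whereas the study's text gives them as Nnmt flox/flox. Both genotypes ate a diet deficient in methionine and choline (MCD diet) for 8 weeks, so no mouse on an ordinary diet enters these values, and the age of the mice is not given in the sources used here.

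Fatty acid synthesis turns surplus carbohydrate into fat. Citrate that leaves the mitochondrion is cleaved to acetyl-CoA, which is carboxylated to malonyl-CoA and built into palmitate at the expense of NADPH, and palmitate is then elongated and desaturated. In the liver the pathway is switched on after feeding by insulin through SREBP-1c, encoded by Srebf1, and by glucose through ChREBP, encoded by Mlxipl. In fasting it is switched off, while genes of gluconeogenesis and fatty acid oxidation are switched on. The MCD diet is known as a model of steatohepatitis in which hepatic Scd1 is low.

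Srebf1 and Mlxipl both have several annotated starts, which a count per gene adds together, and the 250 bases before each of their starts are shown for that reason, with Fasn, a target of both factors, beside them. The sequences are those of RefSeq on GRCm38.p6, written 5′ to 3′ on the strand of the gene. The windows of Srebf1, on the minus strand, were chr11:60222582-60222831 (upstream start), chr11:60220628-60220877 (middle start) and chr11:60210472-60210721 (downstream start). Those of Mlxipl, on the plus strand, were chr5:135089640-135089889 (upstream start) and chr5:135106641-135106890 (downstream start), and that of Fasn, on the minus strand, was chr11:120824548-120824797. Capitals mark 3 motifs searched on both strands: TCACNCCAC (the core of the sterol regulatory element), CACGTG (a form of the E-box) and CCAAT. The last of these reads ATTGG where it lies on the other strand. Other forms of these elements were not searched and stay in lower case.
Srebf1, upstream start: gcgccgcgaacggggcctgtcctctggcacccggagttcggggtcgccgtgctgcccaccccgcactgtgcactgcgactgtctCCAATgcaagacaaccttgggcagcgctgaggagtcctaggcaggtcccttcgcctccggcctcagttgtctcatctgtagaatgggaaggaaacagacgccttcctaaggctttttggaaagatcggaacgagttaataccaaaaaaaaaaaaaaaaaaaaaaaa
Srebf1, middle start: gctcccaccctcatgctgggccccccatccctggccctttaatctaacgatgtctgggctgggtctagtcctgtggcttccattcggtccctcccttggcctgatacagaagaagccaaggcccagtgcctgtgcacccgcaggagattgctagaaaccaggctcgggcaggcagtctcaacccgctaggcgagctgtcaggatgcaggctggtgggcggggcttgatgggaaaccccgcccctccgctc
Srebf1, downstream start: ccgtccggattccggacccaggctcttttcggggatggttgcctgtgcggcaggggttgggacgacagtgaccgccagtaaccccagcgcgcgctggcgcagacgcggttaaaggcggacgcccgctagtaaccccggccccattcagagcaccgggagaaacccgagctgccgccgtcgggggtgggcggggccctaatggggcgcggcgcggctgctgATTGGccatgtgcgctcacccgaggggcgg
Mlxipl, upstream start: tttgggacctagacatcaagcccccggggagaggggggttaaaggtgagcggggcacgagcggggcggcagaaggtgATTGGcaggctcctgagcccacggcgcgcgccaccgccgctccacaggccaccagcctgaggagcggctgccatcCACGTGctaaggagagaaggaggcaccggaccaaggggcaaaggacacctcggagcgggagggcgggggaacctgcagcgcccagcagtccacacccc
Mlxipl, downstream start: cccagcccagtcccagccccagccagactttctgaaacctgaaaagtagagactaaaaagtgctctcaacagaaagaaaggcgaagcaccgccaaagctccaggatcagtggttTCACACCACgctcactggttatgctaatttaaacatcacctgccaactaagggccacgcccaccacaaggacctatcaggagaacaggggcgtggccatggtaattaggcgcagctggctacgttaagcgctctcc
Fasn: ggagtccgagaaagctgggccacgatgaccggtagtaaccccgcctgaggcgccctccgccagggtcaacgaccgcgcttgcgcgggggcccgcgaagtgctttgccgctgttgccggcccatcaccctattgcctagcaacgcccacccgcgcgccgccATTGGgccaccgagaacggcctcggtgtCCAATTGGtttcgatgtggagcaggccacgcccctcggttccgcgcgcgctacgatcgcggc
The sterol regulatory element core was present before the downstream start of Mlxipl, with its first base at -136 from the start, and in 1.05% of all 32851 RefSeq windows of this length. The E-box form CACGTG stood at -98 before the upstream start of Mlxipl and in 6.02% of all windows. CCAAT was found in the Fasn window at 3 places, with first bases at -90, -62 and -59, the last of these overlapping by 2 bases with the one before it, and in 33.8% of all windows. None of the 3 motifs lay in the window of the middle Srebf1 start. These matches describe the letters of the windows, and no binding was measured. A window was found for 9 of the 10 genes, not for Scd1.

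Total counts per library ran from 75020072 to 87934362. Levels are given as CPM, the count of a gene relative to the library total, after scaling by TMM, an estimate of library composition whose factors ran from 0.876 in control library b to 1.21 in Nnmt KO library a. The columns of the table carry no mouse number, so the letters a to d only name the libraries of a genotype. The targeted gene, Nnmt, which encodes nicotinamide N-methyltransferase, had 31.8, 44.8, 68.9 and 83 CPM in Nnmt KO libraries a to d, against 112, 224, 134 and 84.9 CPM in control libraries a to d. Its log2 fold change was -1.28 (SE 0.33, adjusted p = 0.123). The genotypes did not overlap, but Nnmt KO library d and control library d nearly met, and the KO mean was 41.2% of that of the controls.

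The genes for both regulators had lower mean levels in Nnmt KO mice, while those for the enzymes had no common direction. By edgeR's quasi-likelihood test at an adjusted p under 0.05, 0 of the 10 genes were higher and 0 lower, where 0.183% of all tested genes were higher and 0.137% lower. Before adjustment, at p under 0.05, 2 were lower, Srebf1 and Mlxipl, and 0 higher, where 7.13% of all tested genes were lower and 5.45% higher. By DESeq2's adjusted p, 1 was lower, Srebf1, and 0 higher, where 2.06% of 14395 genes were lower and 1.51% higher. Every library of Nnmt KO mice lay below every control library for 1 gene, again Srebf1, and above for 0, where this held for 4.81% and 3.34% of all tested genes. The median log2 fold change of the 10 genes was -0.12, with 6 lower and 4 higher, and that of all tested genes was 0.02, with 47.7% lower.

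**Figure D1:**
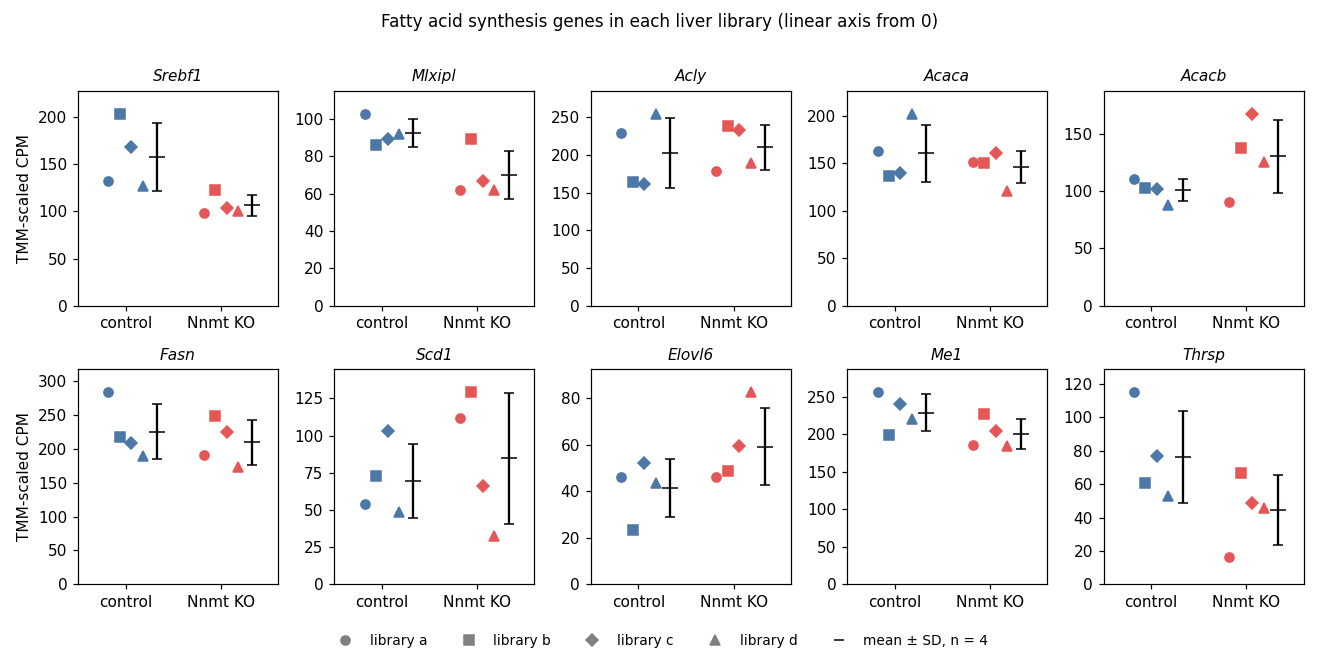
TMM-scaled CPM (vertical axis, linear from 0) of the 10 genes in each control and Nnmt KO library, with 1 point per mouse and the mean ± SD (n = 4) beside the points. Srebf1 is the only gene of the 10 whose genotypes do not overlap, and Scd1 and Thrsp have the widest spread within the Nnmt KO mice relative to their means (SD over mean 52.0% and 47.1%).

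Srebf1 (ENSMUSG00000020538) is annotated at 60199089 to 60222581 on chromosome 11, minus strand (GRCm38, GENCODE M21, as for the positions that follow). It encodes the precursor of SREBP-1, a membrane-bound factor that is cleaved to enter the nucleus and activate genes of fatty acid synthesis. Its levels were 98.0, 123, 104 and 101 CPM in Nnmt KO libraries a to d, against 132, 204, 169 and 127 CPM in control libraries a to d. The genotypes thus met closely between Nnmt KO library b and control library d, and the control libraries b and c were the highest. The mean was 107 ± 11.5 CPM (SD, n = 4) with the knockout and 158 ± 35.7 CPM (SD, n = 4) without it, the former being 67.5% of the latter. The log2 fold change was -0.57 (SE 0.16, 95% interval -0.92 to -0.22), with edgeR's p at 0.00436 before and 0.160 after adjustment over all genes, and DESeq2's adjusted p was 0.0327. The exact permutation test on the 8 libraries, two-sided, gave p = 0.0286, the smallest that 4 mice against 4 allow. Without control library b the log2 fold change was -0.41. Srebf1 shares 109 exon bases with Rai1 on the opposite strand, and whether the counting used strand is not given in the sources used here.

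Mlxipl (ENSMUSG00000005373) is annotated at 135089890 to 135138382 on chromosome 5, plus strand. It encodes ChREBP, which senses glucose metabolites and activates glycolytic and lipogenic genes. Its levels were 62.2, 89.2, 66.6 and 62.1 CPM in Nnmt KO libraries a to d, against 103, 86.0, 89.3 and 92.2 CPM in control libraries a to d. Nnmt KO library b lay within the control range, and the other 3 Nnmt KO libraries lay below every control library. The means were 70.0 ± 12.9 CPM (SD, n = 4) with the knockout and 92.7 ± 7.56 CPM (SD, n = 4) without it. The log2 fold change was -0.40 (SE 0.13, 95% interval -0.70 to -0.11), with edgeR's p at 0.0115 before and 0.236 after adjustment and a two-sided exact permutation p of 0.0571. Mlxipl shares 235 exon bases with the antisense gene Gm43500.

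**Figure D2:**
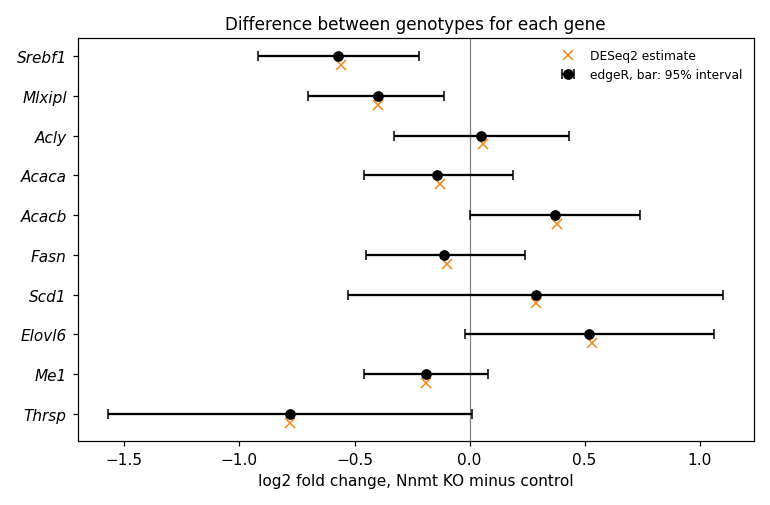
Log2 fold change between Nnmt KO and control mice (horizontal axis, below 0 is lower in Nnmt KO mice) for each of the 10 genes, with edgeR's estimate as a point, its 95% interval as a bar and DESeq2's estimate as a cross. The intervals of Srebf1 (-0.92 to -0.22) and Mlxipl (-0.70 to -0.11) lie below 0, and those of Scd1 and Thrsp are the widest.

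The enzymes that make and carboxylate acetyl-CoA came next in the pathway. Acly (ENSMUSG00000020917; chromosome 11, minus strand, 100476353 to 100528000) encodes ATP citrate lyase, which releases acetyl-CoA from citrate. Its levels were 179, 238, 233 and 190 CPM in Nnmt KO libraries a to d, against 229, 164, 162 and 255 CPM in control libraries a to d. The Nnmt KO values all lay inside the control range, and the log2 fold change was 0.05 (SE 0.17, 95% interval -0.33 to 0.43, unadjusted p = 0.767 in edgeR's test).

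Acaca (ENSMUSG00000020532; chromosome 11, plus strand, 84129672 to 84401651) encodes the cytosolic acetyl-CoA carboxylase that supplies malonyl-CoA to synthesis. It had 151, 150, 161 and 121 CPM in Nnmt KO libraries a to d, against 163, 136, 140 and 202 CPM in control libraries a to d. Between genotypes the log2 fold change was -0.14 (SE 0.15, 95% interval -0.46 to 0.19, unadjusted p = 0.370), and it was -0.01 without control library d and -0.06 without Nnmt KO library d.
Acacb (ENSMUSG00000042010; chromosome 5, plus strand, 114146535 to 114250761) encodes the carboxylase at the outer mitochondrial membrane, whose malonyl-CoA restrains the entry of fatty acids for oxidation. It had 90.5, 138, 168 and 126 CPM in Nnmt KO libraries a to d, against 111, 103, 102 and 88.3 CPM in control libraries a to d. Nnmt KO libraries b, c and d were above every control library, and Nnmt KO library a lay within the control range. The log2 fold change was 0.37 (SE 0.17), with edgeR's p at 0.0503 before and 0.397 after adjustment. Without Nnmt KO library a it was 0.51 (unadjusted p = 0.00236), and without Nnmt KO library c 0.22 (unadjusted p = 0.190).

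Me1 supplies NADPH, and Fasn uses it to build palmitate. Me1 (ENSMUSG00000032418; chromosome 9, minus strand, 86581371 to 86695953) encodes cytosolic malic enzyme. Its levels were 186, 227, 205 and 185 CPM in Nnmt KO libraries a to d, against 256, 199, 241 and 220 CPM in control libraries a to d. On the log2 scale the difference was -0.19 (SE 0.12, 95% interval -0.46 to 0.08, unadjusted p = 0.146), or -0.11 without control library a, and the genotypes overlapped.
Fasn (ENSMUSG00000025153; chromosome 11, minus strand, 120805846 to 120824547) encodes fatty acid synthase. It had 191, 248, 225 and 173 CPM in Nnmt KO libraries a to d, against 283, 218, 209 and 190 CPM in control libraries a to d. The highest value was in control library a and the lowest in Nnmt KO library d, with the others interleaved. The mean was 209 ± 33.9 CPM (SD, n = 4) with the knockout and 225 ± 40.2 CPM (SD, n = 4) without it. EdgeR put the log2 fold change at -0.11 (SE 0.16, 95% interval -0.45 to 0.24, unadjusted p = 0.515), an interval that excludes a fall as large as the estimate for Srebf1 but not one as large as that for Mlxipl.

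Scd1 and Elovl6 act on the palmitate that Fasn makes. Scd1 (ENSMUSG00000037071; chromosome 19, minus strand, 44394455 to 44407879) encodes the stearoyl-CoA desaturase that forms oleate and palmitoleate. Its levels were 112, 129, 65.8 and 32.2 CPM in Nnmt KO libraries a to d, against 53.7, 72.8, 103 and 48.6 CPM in control libraries a to d. The highest Nnmt KO library was 4.01 times the lowest, whereas the control libraries spanned 2.13 times, so both the highest and the lowest values of the 8 mice were in Nnmt KO mice. The log2 fold change was 0.29 (SE 0.37, 95% interval -0.53 to 1.10, unadjusted p = 0.459), and it was 0.01 without Nnmt KO library b and 0.56 without Nnmt KO library d. Scd1 has close paralogs beside it on chromosome 19, and reads shared with them could have been counted for either.
Elovl6 (ENSMUSG00000041220; chromosome 3, plus strand, 129532355 to 129638495) encodes the elongase that makes stearate from palmitate. It had 46.2, 48.7, 59.4 and 82.5 CPM in Nnmt KO libraries a to d, against 46.3, 23.3, 52.2 and 43.6 CPM in control libraries a to d. Nnmt KO library d was the highest and control library b the lowest. This made a log2 fold change of 0.52 (SE 0.25), with edgeR's p at 0.0582 before and 0.412 after adjustment. Without Nnmt KO library d it was 0.31, and without control library b 0.33.

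Thrsp (ENSMUSG00000035686; chromosome 7, minus strand, 97412938 to 97417730) encodes Spot 14, a small lipogenic protein whose expression responds to thyroid hormone and carbohydrate. Its levels were 16.4, 67.0, 48.7 and 45.6 CPM in Nnmt KO libraries a to d, against 115, 60.8, 76.8 and 52.8 CPM in control libraries a to d. Nnmt KO library a stood far below the rest, control library a was the highest, and the remaining 6 libraries lay between 45.6 and 76.8 CPM. On the log2 scale the difference was -0.78 (SE 0.36), with edgeR's p at 0.0522 before and 0.401 after adjustment. It was -0.51 without Nnmt KO library a and -0.50 without control library a. The tested genes of chromosome 7 as a whole had a median log2 fold change of -0.14 (1154 genes), and the 136 genes between 75 and 100 Mb, where Thrsp lies, had a median of -0.29. Of those 136, 2.94% were lower than Thrsp. The part of this region in the Thrsp value was not tested. The genes named below as lying on chromosome 7 are all outside the stretch from 75 to 100 Mb.

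The 10 genes differed in level by up to about an order of magnitude per length of annotated exon. That length merges the exons of all annotated transcripts of a gene, so the order below depends partly on the annotation. In RPKM, that is CPM divided by the kilobases of exon, the control means ran from Me1 (59.5), Acly (38.4), Thrsp (34.9), Srebf1 (28.0), Fasn (20.6), Mlxipl (16.7), Scd1 (14.2), Acacb (10.5) and Acaca (9.39) down to Elovl6 (6.43). The spread between control mice, as SD over mean, was smallest for Mlxipl (8.15%), Acacb (9.24%) and Me1 (10.9%) and largest for Thrsp (36.1%), Scd1 (35.6%) and Elovl6 (30.4%). In Nnmt KO mice it was smallest for Me1 (9.87%) and Srebf1 (10.8%) and largest for Scd1 (52.0%) and Thrsp (47.1%). Acly and Thrsp, Thrsp and Srebf1, Mlxipl and Scd1, Scd1 and Acacb, and Acacb and Acaca are neighbours in this order whose control means differed by less than the SD of the more variable of the pair.

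**Figure D3:**
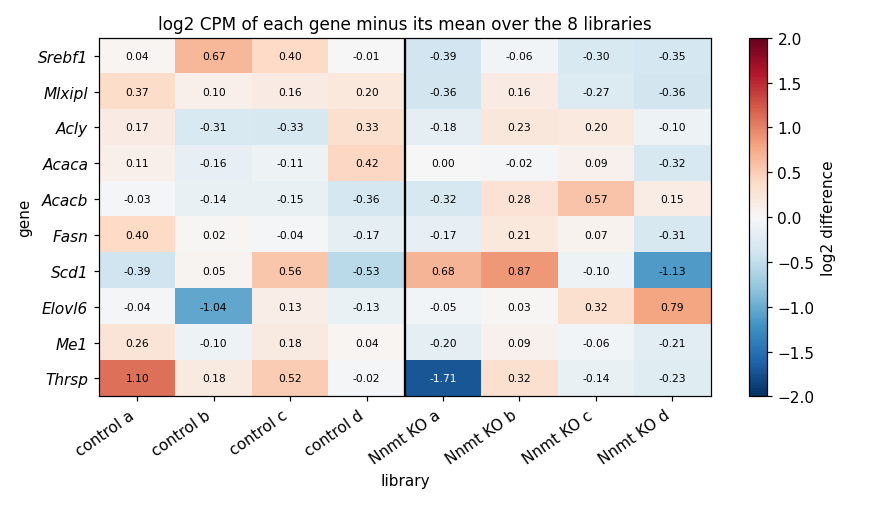
Log2 CPM of each gene (rows) in each library (columns) minus the mean of that gene over the 8 libraries, with control libraries left and Nnmt KO libraries right of the line. Nnmt KO library b is the highest of the Nnmt KO libraries for 7 of the 10 genes, and the lowest value of the whole plot is Thrsp in Nnmt KO library a, at -1.71.

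Some libraries were high or low for several of the 10 genes. Among the 4 Nnmt KO libraries, library b had the highest value for 7 of the 10 genes, and libraries a and d each had the lowest for 5. Among the control libraries, library a had the highest value for 5 genes, library d the lowest for 5 and library b the lowest for 4. Library a of the Nnmt KO mice, the library with the TMM factor of 1.21, differed in some markers too. It had the lowest level of the hepatocyte gene Alb (48500 CPM against 58200 to 89500 CPM in the others). Apoa1, Ttr and Hnf4a were also lowest there, but the hepatocyte markers Apob, Trf and Cps1 were not. Apob, at 2660 CPM, was above every control library (1880 to 2620 CPM). The same library had the highest level of the collagen gene Col1a1 (106 CPM against 18.3 to 70.4 CPM in the others). The part of these differences in the values of library a was not tested. In bulk liver, fewer cells of a type and less RNA per cell cannot be told apart.

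Ratios within a library are free of its scaling, and 3 were formed after the values had been seen. Their p-values, also after adjustment, do not account for that choice. The log2 ratio of Mlxipl to Fasn was -1.58 ± 0.13 (SD, n = 4) in Nnmt KO mice and -1.27 ± 0.17 (SD, n = 4) in control mice, and the genotypes did not overlap (two-sided exact permutation p = 0.0286, 0.0857 after Benjamini-Hochberg adjustment over the 3 ratios). For Srebf1 to Fasn, the difference was -0.44 (exact permutation p = 0.114), with control library a, at -1.10, among the Nnmt KO values. The log2 ratio of Acacb to Acaca differed by 0.47 (exact permutation p = 0.114), with Nnmt KO library a, at -0.74, among the control values.

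The genes whose levels followed Fasn most closely over the 8 libraries were Alkbh3, 9130023H24Rik, Mrpl38, Lsm10 and Wwox, with root mean square differences of 0.083 to 0.093 in centred log2 CPM against an SD of 0.23 for Fasn itself. None of the other 9 fatty acid synthesis genes was among them. Those most like Scd1 were Fgf11, Gm10643, Rhbdl3, Adam1b and Srpx, at 0.225 to 0.290 against an SD of 0.68 for Scd1. These 5 were scarce, with at most 1.30 CPM in any library, against 32.2 to 129 CPM for Scd1.

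Around the pathway, genes of the supply of acetyl-CoA and NADPH included 4 of 14 that were lower at an unadjusted p under 0.05 and 0 that were higher, where 7.13% and 5.45% of all tested genes were, with a list median of -0.02. Mid1ip1, which encodes a partner of acetyl-CoA carboxylase related to Spot 14, had 20.8, 27.9, 20.7 and 18.8 CPM in Nnmt KO libraries a to d, against 36.8, 27.1, 31.2 and 34.5 CPM in control libraries a to d. Only Nnmt KO library b reached the control range. Its log2 fold change was -0.56 (SE 0.14, adjusted p = 0.123 in edgeR's test and 0.0247 by DESeq2). Slc25a10, the mitochondrial dicarboxylate carrier, had a log2 fold change of -0.44 (SE 0.15, adjusted p = 0.236). Of the other elongases and desaturases, 2 of 16 tested were lower and 0 higher at that p, Fads2, the delta-6 desaturase, at -0.49 (SE 0.19) and Elovl7 at -0.72 (SE 0.28). Fads2 was at -0.31 without control library b (unadjusted p = 0.0896).

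Mitochondria have a separate pathway of fatty acid synthesis, which provides the precursor of lipoic acid. There 2 of 10 tested genes were lower and 0 higher at an unadjusted p under 0.05, where 7.13% and 5.45% of all tested genes were. Mcat, the malonyl-CoA acyl carrier protein transacylase of that pathway, had 19.6, 21.3, 21.3 and 19.8 CPM in Nnmt KO libraries a to d, against 28.4, 28.8, 27.5 and 24.5 CPM in control libraries a to d. The genotypes did not overlap, and the Nnmt KO values were close together. The log2 fold change was -0.41 (SE 0.10), and the adjusted p was 0.103 with edgeR and 0.00679 with DESeq2. Ndufab1, the acyl carrier protein, had a log2 fold change of -0.31 (SE 0.14) and lies on chromosome 7.

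SREBP is cut by proteases of the Golgi before it acts. Of 9 processing genes, 1 was higher at an unadjusted p under 0.05, Mbtps2, the site-2 protease, at a log2 fold change of 0.47 (SE 0.18), and Mbtps1, the site-1 protease, had -0.22 (SE 0.11). Of 14 transcriptional partners, 3 were lower and 1 higher at that p. Of all tested genes, 7.13% were lower and 5.45% higher. Nr1h2, which encodes LXR beta and lies on chromosome 7, had a log2 fold change of -0.38 (SE 0.14). Sp1 had 0.23 (SE 0.10), with its libraries apart, at 31.5 to 34.4 CPM in Nnmt KO mice and 25.6 to 31.0 CPM in control mice.

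Targets of the 2 regulators outside fatty acid synthesis did not move one way. Of 12 other ChREBP targets, 2 were higher and 2 lower at an unadjusted p under 0.05, with a median of -0.07. Of all tested genes, 5.45% were higher and 7.13% lower at that p. Txnip, an inhibitor of glucose uptake that glucose induces, had 354, 285, 358 and 304 CPM in Nnmt KO libraries a to d, against 193, 192, 149 and 108 CPM in control libraries a to d. Its log2 fold change was 1.02 (SE 0.18, adjusted p = 0.0496 in edgeR's test), and the genotypes were far apart. The adjusted p was 0.0421 without Nnmt KO library a and 0.0669 to 0.159 without any one of the other 7 libraries, the log2 fold change staying between 0.87 and 1.14. G6pc, the catalytic subunit of glucose-6-phosphatase, had 395, 526, 461 and 667 CPM in Nnmt KO libraries a to d, against 226, 382, 232 and 213 CPM in control libraries a to d. These values did not overlap, although Nnmt KO library a and control library b came close, and the log2 fold change was 0.96 (SE 0.22, adjusted p = 0.0907). The 2 lower genes, named after their values were seen, were Rgs16 at -1.52 (SE 0.52) and Fgf21, on chromosome 7, at -0.85 (SE 0.21). Rgs16 had 222 CPM in control library a, while the other 3 controls had 41.1 to 52.9 CPM and the Nnmt KO mice 20 to 44.8 CPM, and without control library a it was at -0.52 (unadjusted p = 0.0611).

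Among 12 other targets of SREBP-1 and LXR, 1 was higher and 0 lower at an unadjusted p under 0.05, with a median of 0.04. Of all tested genes, 5.45% were higher and 7.13% lower at that p. The higher gene was Lpin1, a phosphatidate phosphatase, which had 275, 616, 751 and 492 CPM in Nnmt KO libraries a to d, against 206, 495, 277 and 189 CPM in control libraries a to d. The genotypes overlapped through Nnmt KO library a and control library b, and the log2 fold change was 0.87 (SE 0.34, adjusted p = 0.317). With 1 library left out it ran from 0.66 to 1.26, with edgeR's unadjusted p from 0.00162 to 0.0893. It was 1.47 without both libraries of the overlap, a choice made after the data were seen that itself raises the value. Lpl, which encodes lipoprotein lipase, had a log2 fold change of 0.66 (SE 0.31, unadjusted p = 0.0598).

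**Figure D4:**
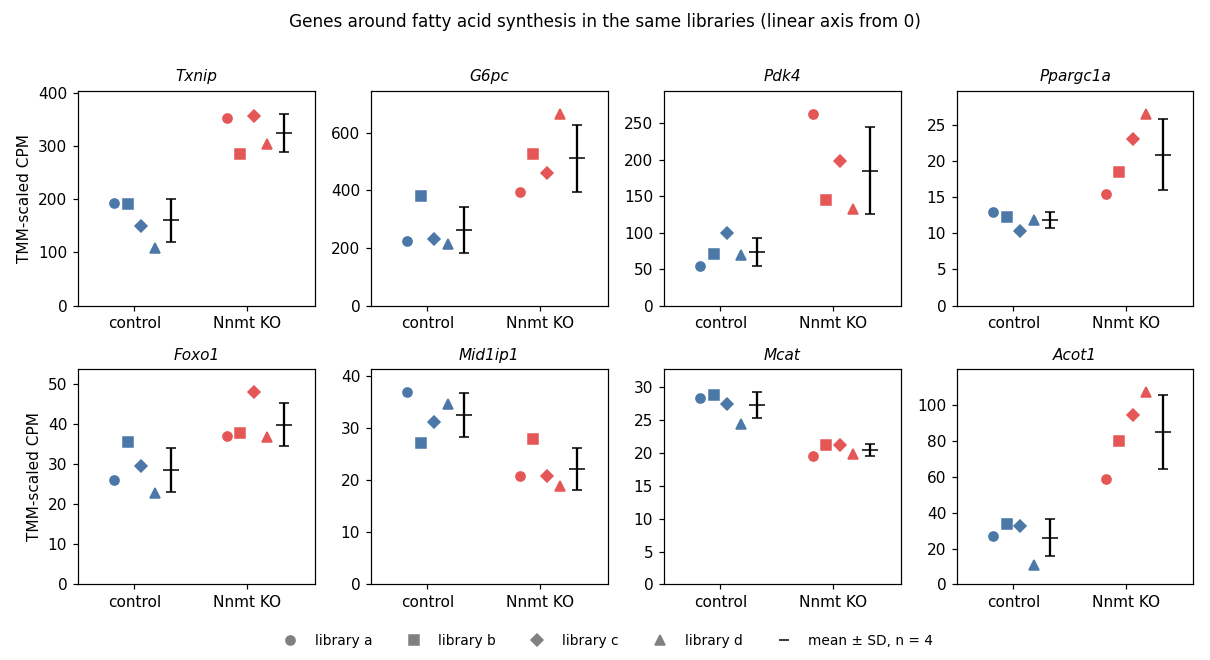
TMM-scaled CPM (vertical axis, linear from 0) of 8 genes around fatty acid synthesis in each control and Nnmt KO library, with 1 point per mouse and the mean ± SD (n = 4) beside the points. Mcat is lower and Txnip, G6pc, Pdk4, Ppargc1a, Foxo1 and Acot1 are higher in every Nnmt KO library than in every control library, and Mid1ip1 overlaps through Nnmt KO library b.

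Most genes of the fasting response had a positive log2 fold change, 13 of 14, as did 7995 of all 15291 tested genes. The list was chosen with earlier results of these data known. The study's text does not say whether the mice were fasted before the livers were taken, nor at what hour. Of the 14, 8 were higher and 1 lower at an unadjusted p under 0.05, against 5.45% and 7.13% of all tested genes, and the median log2 fold change was 0.53. One of them, Pdk4, was higher at an adjusted p under 0.05 in edgeR's test, and 5 were by DESeq2. This held for 0.183% of all tested genes in edgeR's test and for 1.51% of 14395 genes by DESeq2. Pdk4, the kinase that shuts pyruvate out of acetyl-CoA formation, had 263, 145, 198 and 132 CPM in Nnmt KO libraries a to d, against 54.0, 70.8, 99.2 and 69.8 CPM in control libraries a to d. Its log2 fold change was 1.33 (SE 0.24, adjusted p = 0.0496), with every Nnmt KO library above the controls. The adjusted p was 0.0324 without Nnmt KO library a and 0.0679 to 0.216 without any one of the other 7 libraries. Ppargc1a, a coactivator of gluconeogenic genes, had 15.4, 18.5, 23.1 and 26.6 CPM in Nnmt KO libraries a to d, against 12.9, 12.3, 10.4 and 11.8 CPM in control libraries a to d, with a log2 fold change of 0.82 (SE 0.17, adjusted p = 0.0711). The lower gene, named after its values were seen, was Nr0b2, the repressor SHP, at -0.64 (SE 0.19).

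Of 13 genes of insulin signalling, 2 were higher and 1 lower at an unadjusted p under 0.05. For this list and those that follow, the shares of all tested genes were 5.45% higher and 7.13% lower. Foxo1, the factor that insulin keeps out of the nucleus, had a log2 fold change of 0.49 (SE 0.15, adjusted p = 0.194) without overlap, and Akt2, on chromosome 7, had -0.27 (SE 0.11). Among 17 tested genes of malonyl-CoA, AMPK and acyl-CoA handling, 2 were higher and 1 lower. The higher genes were the acyl-CoA thioesterases Acot1, at 1.70 (SE 0.31, adjusted p = 0.0528), and Acot2, at 0.81 (SE 0.18, adjusted p = 0.0907). These are near-identical neighbours on chromosome 12, so that reads could be split between them. Of 15 clock genes, 1 was higher, Nr1d2 at 0.33 (SE 0.15), and 2 were lower, among them Arntl, on chromosome 7, at -0.79 (SE 0.36) and at -0.24 without control library d. Of the genes around the pathway named above, Fads2, Elovl7, Ndufab1, Mbtps2, Nr1h2, Sp1, Rgs16, Lpin1, Akt2, Nr1d2 and Arntl each had an unadjusted p above 0.05 when at least 1 of the 8 libraries was left out.

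**Figure D5:**
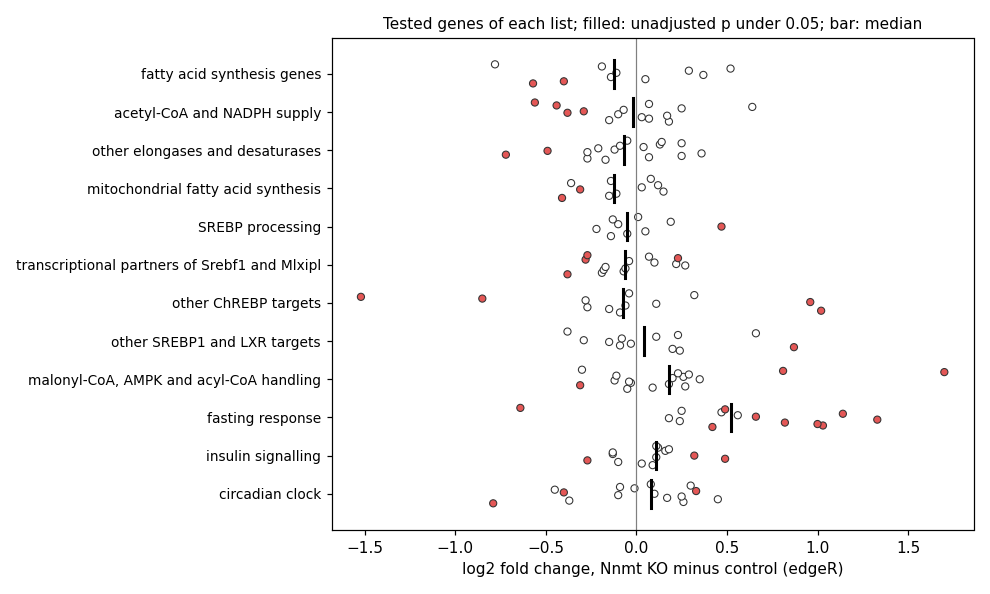
Log2 fold change between Nnmt KO and control mice (horizontal axis) for every tested gene of the fatty acid synthesis genes and of 11 lists around them, with filled points at an unadjusted p under 0.05 and a bar at the median of each list. The median of the fasting response, 0.53, lies farthest from 0, and that of the fatty acid synthesis genes is -0.12. The lists were chosen with earlier results of these data known.

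Hepatocyte markers were abundant in every library, with a summed level over 7 genes of 79000 to 131000 CPM in Nnmt KO mice and 88300 to 127000 CPM in control mice, and 0 of 7 passed an unadjusted p of 0.05. Of 7 adipocyte markers, Adipoq, Lep and Plin1 had 0 counts in every library, and 2 were tested, Adrb3 and Cidec. These summed to 126 to 190 CPM in Nnmt KO mice and 90.8 to 216 CPM in control mice, with a median log2 fold change of -0.4. Nearly all of the sum was Cidec, at 125 to 190 CPM and 90 to 215 CPM. The 7 cholangiocyte markers summed to 89.6 to 279 CPM in Nnmt KO mice and 50.3 to 168 CPM in control mice, with a median log2 fold change of 0.56, and those of stellate cells and fibroblasts to 338 to 715 CPM and 273 to 462 CPM, with a median of 0.26. Lymphocyte markers summed to 9.11 to 17.9 CPM and 5.91 to 13.4 CPM, with a median of 0.62, macrophage markers to 455 to 582 CPM and 295 to 563 CPM, endothelial markers to 191 to 219 CPM and 149 to 288 CPM, and pancreatic acinar markers to 7.70 to 9.31 CPM and 8.20 to 13.3 CPM. The summed ranges of the genotypes overlapped for each of these lists. At an unadjusted p under 0.05, 5.45% of all tested genes were higher and 7.13% lower. By that p, 2 stellate cell and fibroblast markers, 1 cholangiocyte marker and 1 lymphocyte marker were higher and 0 markers lower. All 7 log2 fold changes were positive in each of these 3 lists, as were 6 of 7 for macrophages (median 0.27). Of all 15291 tested genes, 7995 were positive. The libraries did not overlap, with Nnmt KO mice higher, for 1 hepatocyte marker (Apob), 1 cholangiocyte marker and 2 lymphocyte markers. This held for 3.34% of all tested genes. By DESeq2's adjusted p under 0.05, 1 lymphocyte marker was higher, where 1.51% of 14395 genes were. By edgeR's adjusted p, 0 markers passed. The part of the markers' cell types in the values above was not tested.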

How the data were processed

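Raw counts for each gene, as whole numbers, were deposited by the authors. Reads were aligned with HISAT2, and the submitters' processing notes also name StringTie and mm10 (GRCm38). The layout of the gene names is that of StringTie's count helper, in which case the counts are estimated from coverage and rounded. Versions and strand setting are not given in the sources used here, and the methods and the labels name different library kits. Of 33212 genes, 12414 had 0 counts throughout. Genes were kept by filterByExpr (minimum count 10), scaled by TMM and tested with edgeR 4.0.16's quasi-likelihood test in R 4.3.3, with Benjamini-Hochberg adjustment over 15291 genes. DESeq2 1.42.0 was an alternative. The SE is implied by the F statistic. Exact tests used all 70 assignments of the 8 libraries. At this depth 3 counts are at most 0.04 CPM, and that covers counting error only. Libraries of 1 genotype differed beyond sampling noise (chi-square per degree of freedom 39.9 to 248). Nothing in the labels gives a batch.

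The members and lists were chosen with earlier results of these data known. Named genes were the 10 members, Nnmt, from each list those with an adjusted p under 0.05 and the 2 of smallest p, and the 5 most like Fasn and Scd1. Hsd17b8 and Amy2b were not matched by name and were not used here, and 1 gene of the lists is not reported here. Both models were first tested on simulated data.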

Additional observations from a re-analysis of the deposited data

Results flagged for a closer look

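In 68 groups of 4 libraries, the highest or lowest library was compared with the other 3, and 5 stood apart by Dixon's criterion, where chance would give about 3.4. Mlxipl had 89.2 CPM in Nnmt KO library b and 62.1 to 66.6 CPM in the other Nnmt KO libraries. Sp1 had 31.5 CPM in Nnmt KO library d and 34.1 to 34.4 CPM in the others. G6pc had 382 CPM in control library b and 213 to 232 CPM in the other control libraries. Foxo1 had 47.9 CPM in Nnmt KO library c and 36.7 to 37.8 CPM in the others. The TMM factor was 1.21 in Nnmt KO library a and 0.952 to 0.977 in the others. Rgs16, named after its values were seen, was not among the 68 groups, so the criterion was not applied to it. It had 222 CPM in control library a and 41.1 to 52.9 CPM in the other control libraries.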

How the results depend on the processing

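Srebf1 and Mlxipl kept an unadjusted p under 0.05 and their direction under all 13 alternatives, at log2 fold changes of -0.66 to -0.38 and of -0.54 to -0.33. So did Nnmt, Mid1ip1, Mcat, Txnip, G6pc, Acot1, Acot2, Pdk4, Ppargc1a and Foxo1. The same held for Fgf21 and Nr0b2, which were named after their values were seen. The counts of calls moved with the settings, and the causes were not tested. The number of genes past an adjusted p of 0.05, 49 as reported, was 30 with DESeq2's size factors, 22 with scaling by library size only, 8 without the filter, 513 with DESeq2's test, and 6 to 149 with 1 library left out, the highest without Nnmt KO library a. Leaving out Nnmt KO library a and control library b together, chosen after the data were seen, gave 206. Of the 10 members, 1 passed the adjusted p with DESeq2's test, where Nnmt, at -1.28, also passed it. At an unadjusted p, 4 members passed with scaling by library size only, 4 with DESeq2's test, 5 without both libraries, and 2 to 4 with 1 library left out, the 4 being reached without Nnmt KO library a and without Nnmt KO library b. The genotypes did not overlap for 2 members with scaling by library size only, 3 without both libraries, and 1 to 3 with 1 library left out. Shares of all tested genes at an unadjusted p, or without overlap, were not computed under these settings. With fewer libraries, non-overlap also arises more easily. These counts are therefore not read as a result about the members. With 1 library left out, Acly ran from -0.04 to 0.18 and Fasn from -0.20 to 0.04, changing sign. Fasn was positive without control library a. The median of the members ran from -0.18 to -0.03, and 6 to 13 of the fasting genes passed an unadjusted p. Txnip passed the adjusted p in 4 of the 13 alternatives and Pdk4 in 3. Scaling by library size moved the median of all genes from 0.02 to 0.07. No paired analysis was possible because the columns of the table carry no mouse number.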
